A study of Mus musculus with 34 samples.

Results

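The 6 genes followed here encode carriers of fatty acids and acyl-CoA, and they were measured in 34 mouse livers: the fatty acid binding proteins Fabp1, Fabp2, Fabp4, Fabp5 and Fabp7, and Dbi, which encodes the acyl-CoA binding protein. They were taken by name, as the non-control probes whose gene name in the scanner files is 1 of these 6. The rule found 7 probes for 6 genes among 55681 probes, 2 of them for Dbi. All 7 probes read well above background on all 34 arrays, so every member passed the filter on dim probes.

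Long-chain fatty acids and their CoA esters are poorly soluble in water, and cells move them bound to small proteins of the cytosol. Fatty acid binding proteins fold into a barrel that holds the fatty acid, and each tissue uses its own set. Fabp1 is the liver form and one of the most abundant proteins of the hepatocyte cytosol, Fabp2 is the intestinal form, Fabp4 the form of adipocytes and macrophages, Fabp5 the epidermal form and Fabp7 the brain form. Dbi encodes a protein of a different fold that binds acyl-CoA esters. PPARA is a nuclear receptor of hepatocytes that is activated by fatty acids and by fibrate drugs and switches on genes of fatty acid uptake and oxidation. Fabp1 is a known PPARA target, and its protein can carry ligands to the receptor.

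The mice were C57Bl/6J males aged 14 weeks, each giving 1 liver and 1 array, and were killed at zeitgeber time 14. They were wild-type (WT), whole-body Ppara knockout (KO), liver Ppara knockout (LKO) or LWT, labelled liver WT, the controls of the LKO mice. Each received fenofibrate, a fibrate, at 100 mg per kg per day, or the vehicle, 3% gum Arabic, by daily gavage for 10 days. The groups held 4 WT vehicle, 4 WT fenofibrate, 4 LWT vehicle, 5 LWT fenofibrate, 4 LKO vehicle, 5 LKO fenofibrate, 3 KO vehicle and 5 KO fenofibrate mice. The series text speaks of 36 samples, while its own group sizes sum to 34. The driver of the liver deletion and the deleted part of Ppara are not given in the sources used here, and a knockout liver keeps its non-hepatocyte cells.

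Levels are log2 intensities after each array's own 75th percentile was subtracted, so a level of 0 is that percentile. They are compared for a probe across mice and never between probes. Changes are log2 differences of group means with the standard error (SE) from limma, a linear model fitted to 15561 genes over all 34 arrays. A change was called when its p, adjusted by Benjamini-Hochberg over those genes, was below 0.05. Between 50.6% and 63.2% of probes were well above background on an array, no spot was saturated, and replicates correlated across genes at 0.978 to 0.989. All 10 hepatocyte markers, Alb among them, were above background on all 34 arrays. Ppara read 7.02 ± 0.20 (SD, n = 4) in WT and 5.34 ± 0.27 (SD, n = 3) in KO vehicle livers, a difference of -1.68 ± 0.17 (adjusted p = 8.41e-09). It read 7.03 ± 0.23 (SD, n = 4) in LWT and 6.11 ± 0.09 (SD, n = 4) in LKO vehicle livers, a difference of -0.91 ± 0.15 (adjusted p = 0.000152). A probe outside the deleted part checks nothing about a working transcript, and which part the probe covers is unknown. In whole liver, fewer cells of a type and less RNA per cell cannot be told apart.

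The upstream sequences are shown because Fabp1 and Fabp2 were each lower in both knockouts on fenofibrate, while Fabp2 rose with the drug in the control lines and Fabp1 had no called change. PPARA binds DNA with RXR at a direct repeat of the hexamer AGGTCA with 1 base between the copies. RefSeq windows on GRCm38.p6 were matched for 4 of the 6 members, Fabp1, Fabp2 and Fabp7 among them. The stretches below are the 250 bases before the annotated start, 5′ to 3′ on the gene's strand, with capitals marking the searched motifs. They lie at chr6:71199629-71199878 (plus strand, Fabp1) and chr3:122894822-122895071 (plus strand, Fabp2).
Fabp1: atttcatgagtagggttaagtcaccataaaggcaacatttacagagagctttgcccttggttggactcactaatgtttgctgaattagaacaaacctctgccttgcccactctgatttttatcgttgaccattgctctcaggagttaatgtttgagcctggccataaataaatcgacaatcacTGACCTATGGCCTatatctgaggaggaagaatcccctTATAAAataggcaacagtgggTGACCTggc
Fabp2: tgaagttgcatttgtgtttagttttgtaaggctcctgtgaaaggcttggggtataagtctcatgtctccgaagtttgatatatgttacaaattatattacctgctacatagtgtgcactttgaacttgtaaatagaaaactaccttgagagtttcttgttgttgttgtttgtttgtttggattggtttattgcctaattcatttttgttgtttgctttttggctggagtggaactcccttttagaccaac

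Both strands were searched for AGGTCANAGGTCA, for the looser AGGNCANAGGTCA, for the hexamer AGGTCA alone and for TATAAA. The looser pattern was chosen knowing the PPAR element described for Fabp1, so its match there is no independent result. Fabp1 holds it on the reverse strand as TGACCTATGGCCT, at -67 to -55 from the start, which takes in 1 hexamer match at -67 to -62. A further hexamer match stands at -9 to -4 and TATAAA at -30 to -25. The looser pattern occurs in 27 of 32851 windows (0.0822%), the strict one in 11 (0.0335%), the hexamer in 14.0% and TATAAA in 12.4%. Fabp7 holds the hexamer at -171 to -166. None of these letters was found in the Fabp2 window, which says nothing about binding elsewhere.

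Fabp1, the liver fatty acid binding protein, was lower in both knockouts than in their controls, on vehicle and on fenofibrate alike. The lowest of 17 control livers read 9.83 and the highest of 17 knockout livers 9.75. Its probe lies at chr6:71154906-71154965 on the plus strand (mm9, the build of the array design). On vehicle the 4 WT livers read 10.09, 9.90, 10.08 and 10.09, and the 3 KO livers 9.18, 9.52 and 8.94. The LWT livers read 9.83, 10.23, 10.31 and 10.11, and the LKO livers 9.48, 9.25, 9.50 and 9.10. Neither knockout group overlapped its control, which held for 27.4% of all genes in KO against WT and 13.7% in LKO against LWT.

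The vehicle difference was -0.83 ± 0.14 for KO minus WT (adjusted p = 5.63e-05), a 1.77-fold lower level. It was -0.79 ± 0.13 for LKO minus LWT (adjusted p = 0.000117), a 1.73-fold lower level. The whole-body effect minus the liver effect was -0.04 (95% interval -0.43 to 0.36, adjusted p = 0.938), and the interval spans differences of either sign. Within slides that held both groups, LKO minus LWT ran from -1.07 to -0.35 over 3 slides, and KO minus WT was -0.91 on the 1 slide that held both.

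Fenofibrate gave no called change of Fabp1 in any line. The treated WT livers read 10.19, 10.17, 10.00 and 10.49 and the treated LWT livers 10.04, 10.05, 10.20, 10.39 and 10.09, and both groups overlapped their vehicle groups. The change was 0.17 ± 0.13 in WT (95% interval -0.09 to 0.44, adjusted p = 0.386) and 0.03 ± 0.12 in LWT (95% interval -0.22 to 0.29, adjusted p = 0.892). The intervals reach up to 0.44 and 0.29. Treated LKO livers read 9.54, 9.64, 9.64, 9.26 and 9.53 and treated KO livers 9.63, 9.75, 9.23, 9.53 and 9.55, which overlapped their vehicle groups. The change was 0.19 ± 0.12 in LKO (adjusted p = 0.921) and 0.32 ± 0.14 in KO (adjusted p = 0.352). On fenofibrate Fabp1 was again lower in both knockouts without overlap, which held for 34.8% of all genes in KO against WT and 29.4% in LKO against LWT. KO minus WT was -0.68 ± 0.12 (1.60-fold lower, adjusted p = 5.41e-05) and LKO minus LWT -0.63 ± 0.12 (1.55-fold lower, adjusted p = 7.96e-05).

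**Figure D1:**
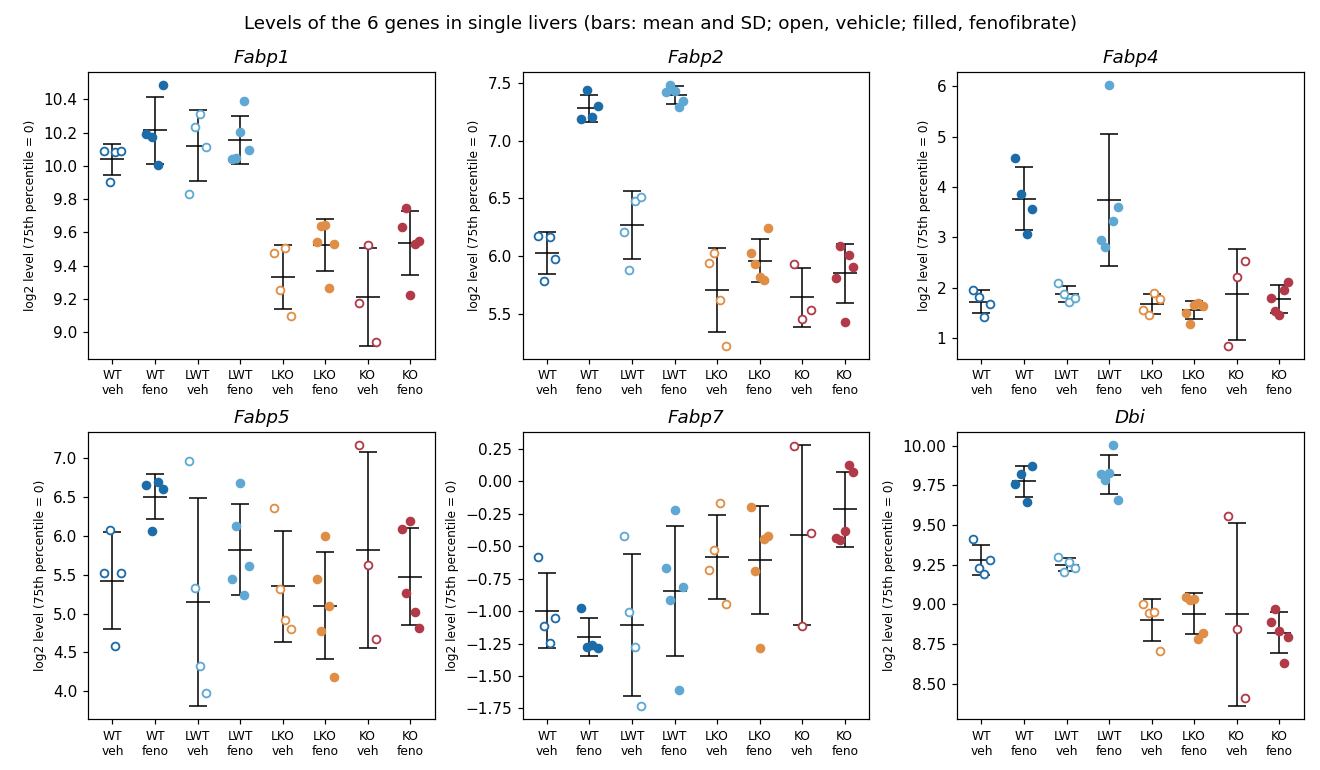
Levels of the 6 genes in single livers, as log2 intensity minus the 75th percentile, with 1 panel per gene and its own axis; open points are vehicle, filled points fenofibrate, bars the group mean and SD (n = 3 to 5). Fabp2, Fabp4 and Dbi stand higher on fenofibrate in WT and LWT, Fabp1 stands lower in LKO and KO whatever the treatment, and Fabp5 spreads widely within groups.

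Fabp2, the intestinal form, was also measured well above background in these livers, and it rose with fenofibrate in both control lines, with no called change in either knockout. Its probe lies at chr3:122602276-122602335 on the plus strand (mm9). WT livers read 6.17, 5.79, 6.17 and 5.97 on vehicle and 7.19, 7.44, 7.2 and 7.30 on fenofibrate. LWT livers read 6.21, 5.88, 6.48 and 6.51 on vehicle and 7.43, 7.48, 7.43, 7.29 and 7.34 on fenofibrate. Every treated control liver stood above every untreated one, where 27.2% of all genes had no overlap in WT and 18.8% in LWT.

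The rise was 1.26 ± 0.16 in WT (2.39-fold, adjusted p = 8.25e-07) and 1.13 ± 0.15 in LWT (2.18-fold, adjusted p = 2.30e-06). LKO livers read 5.94, 6.03, 5.62 and 5.22 on vehicle and 6.03, 5.93, 5.82, 5.79 and 6.25 on fenofibrate. KO livers read 5.94, 5.46 and 5.54 on vehicle and 5.81, 6.09, 5.43, 6.01 and 5.91 on fenofibrate. In both knockouts the treated and untreated livers overlapped, with changes of 0.26 ± 0.15 in LKO (adjusted p = 0.912) and 0.21 ± 0.16 in KO (adjusted p = 0.653). The response differed between lines by 1.05 ± 0.23 for WT against KO (adjusted p = 0.00238) and by 0.87 ± 0.21 for LWT against LKO (adjusted p = 0.00990).

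Without the drug the knockouts differed from their controls by less. Fabp2 was lower in LKO than in LWT (-0.57 ± 0.16, 1.48-fold, adjusted p = 0.0261), although the groups overlapped. The call was lost in the authors' value table (-0.45, adjusted p = 0.143), with quantile normalization (-0.48, adjusted p = 0.0508) in a fit on those groups alone (adjusted p = 0.183), and without any 1 of replicates 3 and 4 of either group. KO minus WT was -0.38 ± 0.17 (adjusted p = 0.0924) and became a call with slide as a block (-0.52, adjusted p = 0.0184) or without KO vehicle replicate 1 (-0.53, adjusted p = 0.0325). On fenofibrate both knockouts lay 2.70-fold below their controls, at -1.43 ± 0.15 for KO minus WT (adjusted p = 5.65e-09) and -1.43 ± 0.14 for LKO minus LWT (adjusted p = 2.49e-09). Of 7 enterocyte markers, 6 failed the filter in these livers (Alpi, Cdx2 and Krt20 were above background on 0 arrays), and the seventh, Apoa4, is also made by liver.

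Dbi, which encodes the acyl-CoA binding protein, rose with fenofibrate in both control lines by a smaller step, and its levels varied little within those groups. Its main probe lies at chr1:122009917-122009976 on the minus strand (mm9), and the second at chr1:122009867-122009926 overlaps it, so the 2 are not independent readings. WT livers read 9.41, 9.23, 9.19 and 9.28 on vehicle and 9.76, 9.82, 9.65 and 9.87 on fenofibrate. LWT livers read 9.30, 9.20, 9.27 and 9.23 on vehicle and 9.82, 9.78, 9.82, 10.00 and 9.66 on fenofibrate. The treated and untreated groups did not overlap in either control line, as for 27.2% of all genes in WT and 18.8% in LWT.

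The rise was 0.49 ± 0.14 in WT (1.41-fold, adjusted p = 0.00876) and 0.57 ± 0.13 in LWT (1.48-fold, adjusted p = 0.00214). The second probe gave 0.61 (adjusted p = 0.00684) and 0.60 (adjusted p = 0.00566). LKO livers read 9.0, 8.95, 8.95 and 8.71 on vehicle and 9.05, 9.02, 9.03, 8.78 and 8.82 on fenofibrate, a change of 0.04 ± 0.13 (adjusted p = 0.992). KO livers read 9.56, 8.84 and 8.41 on vehicle and 8.89, 8.97, 8.83, 8.63 and 8.79 on fenofibrate, a change of -0.12 ± 0.14 (adjusted p = 0.793). The 3 KO vehicle livers spanned more than the control vehicle groups, replicate 1 being the highest and above every WT vehicle liver.

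Dbi results that use the KO vehicle group turn on single livers. KO minus WT on vehicle was -0.34 ± 0.15 (adjusted p = 0.0773), -0.65 without replicate 1 (adjusted p = 7.86e-05) and -0.08 without replicate 3 (adjusted p = 0.706). The WT response exceeded the KO response by 0.61 ± 0.20 (adjusted p = 0.0405), but by 0.30 without replicate 1 (adjusted p = 0.166), and the call was lost in 13 of 26 alternatives. KO vehicle replicate 1 was also the lowest of its group for Fabp4 (0.85) and the highest for Fabp5 (7.16) and Fabp7 (0.27), while its Fabp1 value lay between the other two. The LWT response exceeded the LKO response by 0.53 ± 0.18 (adjusted p = 0.0803), short of a call here, but called in the authors' value table (adjusted p = 0.0315), after quantile normalization (adjusted p = 0.0106) and with slide as a block (adjusted p = 0.0469). On fenofibrate Dbi was lower in both knockouts without overlap, beside 34.8% of all genes without overlap in KO against WT and 29.4% in LKO against LWT, at -0.95 ± 0.13 for KO minus WT (adjusted p = 5.66e-07) and -0.88 ± 0.12 for LKO minus LWT (adjusted p = 1.15e-06).

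Fabp4, the adipocyte and macrophage form, gave the largest fitted rise of the 6 genes in both control lines, from a low level in untreated liver. Its probe lies at chr3:10204452-10204511 on the minus strand (mm9). WT livers read 1.96, 1.82, 1.43 and 1.69 on vehicle and 4.57, 3.87, 3.07 and 3.57 on fenofibrate. LWT livers read 2.10, 1.88, 1.72 and 1.81 on vehicle and 2.95, 2.82, 6.02, 3.33 and 3.61 on fenofibrate. No treated control liver overlapped the untreated ones, as for 27.2% of all genes in WT and 18.8% in LWT. Replicate 3 of the treated LWT group stood far above the rest of its group.

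The rise was 2.05 ± 0.43 in WT (4.13-fold, adjusted p = 0.000792) and 1.87 ± 0.41 in LWT (3.65-fold, adjusted p = 0.00144). Without replicate 3 of the treated LWT group the Fabp4 rise was 1.30 (adjusted p = 0.00109). LKO livers read 1.55, 1.46, 1.91 and 1.79 on vehicle and 1.49, 1.28, 1.66, 1.70 and 1.64 on fenofibrate. KO livers read 0.85, 2.21 and 2.54 on vehicle and 1.80, 1.54, 1.45, 1.95 and 2.12 on fenofibrate. Treated and untreated knockout livers overlapped, with changes that were not called, -0.12 ± 0.41 in LKO (95% interval -0.96 to 0.71) and -0.09 ± 0.44 in KO (95% interval -1.0 to 0.81). The difference in response was 2.14 ± 0.62 for WT against KO (adjusted p = 0.0218) and 1.99 ± 0.58 for LWT against LKO (adjusted p = 0.0327). The second was 1.42 without LWT fenofibrate replicate 3 (adjusted p = 0.0188), and it missed the threshold when any 1 of 6 other livers was left out (adjusted p up to 0.0619).

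On vehicle Fabp4 showed no called difference, at 0.14 ± 0.46 for KO minus WT (adjusted p = 0.852) and -0.20 ± 0.43 for LKO minus LWT (adjusted p = 0.873). On fenofibrate it was 3.99-fold lower in KO than in WT (-2.0 ± 0.41, adjusted p = 0.000201) and 4.56-fold lower in LKO than in LWT (-2.19 ± 0.38, adjusted p = 3.83e-05). Fabp1 differed in this from Fabp4, its gap being called on both treatments.

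Markers of fat moved in the same livers in part. Of 7 adipocyte markers 4 passed the filter, of which 3 rose in WT (Cfd, Pnpla2 and Lipe, of which the last 2 are lipases that liver also makes) and 2 in LWT (Cfd and Pnpla2). Among all genes 10.2% were raised in each of these lines. Cfd, which encodes adipsin, read -3.45 to -2.46 in WT vehicle and 1.54 to 3.86 in WT fenofibrate livers, a change of 5.32 ± 0.94 (adjusted p = 0.000102). The summed level of the 4 genes (each as a linear ratio to its array's 75th percentile) was 19.6 to 42.3 in WT vehicle, 71.6 to 102 in WT fenofibrate, 36.9 to 53.6 in LWT vehicle and 72.9 to 101 in LWT fenofibrate livers. It was 20.7 to 49.4 across the 4 knockout groups. Most of that sum is Pnpla2, whose log2 level was 4.25 to 5.39 in WT vehicle and 6.08 to 6.61 in WT fenofibrate livers. Of the defining markers, Lep was above background on 0 of 34 arrays. Adipoq was above it on 7 of 34, among them 0 of 4 WT vehicle and 3 of 4 WT fenofibrate livers, 2 of 4 LWT vehicle and 0 of 5 LWT fenofibrate livers. Plin1 was above it on 20 of 34, among them 3 of 4 livers in each WT group, 2 of 4 LWT vehicle and 4 of 5 LWT fenofibrate livers. In LWT fenofibrate replicate 3, the liver with the highest Fabp4, Adipoq and Lep were not above background, Plin1 was above it and the highest of its group (-3.51), and Cfd read 0.83, within its group's range of 0.53 to 2.87. Of 10 Kupffer cell and macrophage markers none was called with limma under fenofibrate in any line, and their summed level in the treated WT livers, 114 to 181, overlapped the 101 to 151 of the untreated ones. Their part in the Fabp4 result was not tested.

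Fabp5, the epidermal form, varied so much within groups that no comparison called it. Its probe lies at chr3:10016185-10016244 on the plus strand (mm9). WT livers read 5.52, 6.07, 4.58 and 5.53 on vehicle and 6.66, 6.06, 6.68 and 6.60 on fenofibrate. LWT livers read 6.97, 5.33, 4.33 and 3.98 on vehicle and 5.44, 6.13, 6.68, 5.24 and 5.61 on fenofibrate. The untreated LWT livers alone ran from 3.98 to 6.97, and each treated group overlapped its untreated one.

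The change was 1.08 ± 0.53 in WT (95% interval -0.02 to 2.17, adjusted p = 0.160) and 0.67 ± 0.51 in LWT (95% interval -0.37 to 1.71, adjusted p = 0.409). LKO livers read 6.36, 5.31, 4.92 and 4.80 on vehicle and 5.45, 4.77, 6.00, 5.10 and 4.18 on fenofibrate. KO livers read 7.16, 5.63 and 4.67 on vehicle and 6.08, 5.27, 6.19, 5.02 and 4.82 on fenofibrate. In both knockouts the groups overlapped widely, and the changes were -0.25 ± 0.51 and -0.35 ± 0.55. KO minus WT on fenofibrate was -1.03 ± 0.51 (adjusted p = 0.104), and with slide as a block -1.57 (adjusted p = 0.0111). The test over all 8 groups gave Fabp5 an adjusted p of 0.252, against 0.0421 without LWT vehicle replicate 1, its highest value in that group. The residual SD of Fabp5 was 0.79, above that of 98.4% of genes, where the median gene had 0.21.

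Fabp7, the brain form, was the 1 member that stood higher in a knockout, in KO against WT on fenofibrate. Its probe lies at chr10:57508039-57508098 on the plus strand (mm9). On fenofibrate the WT livers read -0.98, -1.28, -1.26 and -1.28 and the KO livers -0.44, -0.46, -0.38, 0.12 and 0.07. These groups did not overlap, as for 34.8% of all genes, and KO minus WT was 0.98 ± 0.27 (1.98-fold, adjusted p = 0.00376).

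On vehicle the WT livers read -0.58, -1.12, -1.24 and -1.05 and the KO livers 0.27, -1.11 and -0.40, which overlapped (0.59 ± 0.31, adjusted p = 0.152, and 0.94, adjusted p = 0.0322, without KO vehicle replicate 2). LKO and LWT showed no such gap that passed the test. LWT livers read -0.42, -1.0, -1.28 and -1.73 on vehicle and -0.67, -0.91, -0.22, -1.61 and -0.82 on fenofibrate. LKO livers read -0.69, -0.53, -0.17 and -0.95 on vehicle and -0.20, -0.69, -1.28, -0.44 and -0.42 on fenofibrate. LKO overlapped LWT under both treatments, with differences of 0.53 ± 0.28 (adjusted p = 0.364) and 0.24 ± 0.25 (adjusted p = 0.514). The whole-body effect on fenofibrate exceeded the liver effect by 0.75 (95% interval -0.01 to 1.51, adjusted p = 0.206), so a difference between the 2 knockouts was not shown. No line had a called change of Fabp7 on fenofibrate, with fitted changes from -0.20 to 0.26. Fabp7 is known as a glial gene in mouse, and of 6 glial markers 4 passed the filter, with none called between KO and WT on fenofibrate and S100b above background on 0 arrays.

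Set side by side, fenofibrate raised 3 of 6 members in WT (Fabp2, Fabp4 and Dbi), where 21.6% of all genes were called and 10.2% were raised. It raised 3 of 6, again Fabp2, Fabp4 and Dbi, in LWT, where 18.0% were called and 10.2% raised. The median change over all genes was 0.00 in WT and 0.01 in LWT. In LKO 0 of 6 members were called by limma, and 0 had an unadjusted p below 0.05. There 0% of all genes were called, while 911 had an unadjusted p below 0.05. In KO 0 of 6 were called and 1, Fabp1, had an unadjusted p below 0.05, where 0.0321% of all genes were called. The share of all genes whose treated and untreated livers did not overlap was 27.2% in WT and 18.8% in LWT, against 3.34% in LKO and 3.54% in KO.

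**Figure D2:**
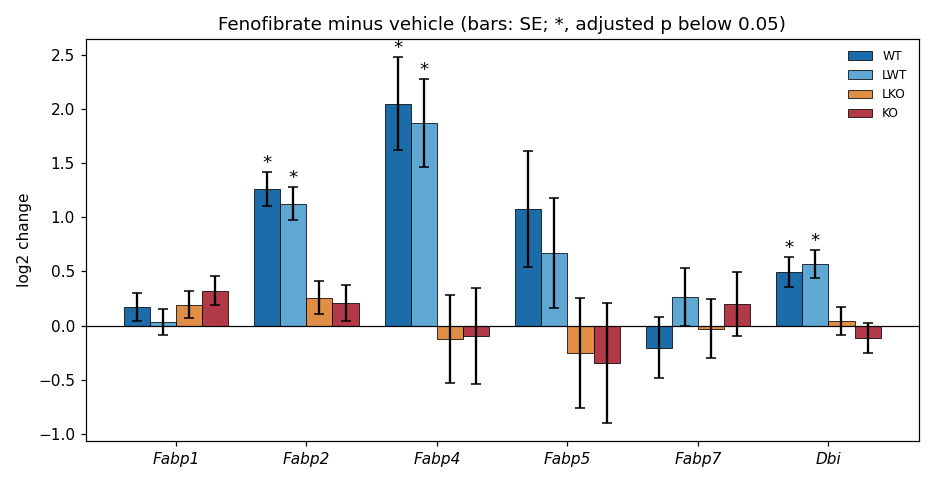
Log2 change of the 6 genes on fenofibrate against vehicle in WT, LWT, LKO and KO, with bars for the SE and a star where the adjusted p was below 0.05 (n = 3 to 5 per group). Stars stand over Fabp2, Fabp4 and Dbi in WT and LWT only, and Fabp5 has the widest bars.

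The direct test of that contrast called 2 of 6 members for LWT against LKO (Fabp2 and Fabp4), where 6.83% of all genes were called and 3.81% had the larger response in LWT. For WT against KO it called 3 of 6 (Fabp2, Fabp4 and Dbi), where 11.1% were called and 5.68% had the larger response in WT. Between the 2 control lines 0 of 6 responses differed by limma, with 0 of 6 unadjusted p below 0.05, 0% of all genes called and 667 genes with an unadjusted p below 0.05. Between the 2 knockouts 0 of 6 differed, again with 0 of 6 unadjusted p below 0.05, 0% of genes called and 1459 with an unadjusted p below 0.05. The intervals stay wide for the variable genes. The WT response minus the LWT response was 0.13 for Fabp2 (95% interval -0.32 to 0.58) and -0.07 for Dbi (95% interval -0.46 to 0.31), but 0.18 for Fabp4 (95% interval -1.03 to 1.39).

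**Figure D3:**
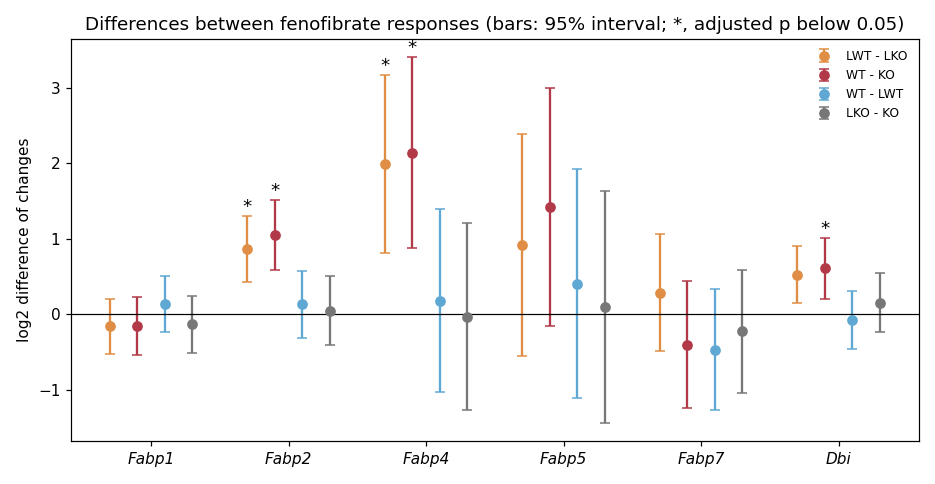
Differences between the fenofibrate responses of pairs of lines, as log2 differences of changes with 95% intervals, and a star where the adjusted p was below 0.05. The intervals of Fabp2, Fabp4 and Dbi lie above 0 for LWT against LKO and for WT against KO, Dbi without a star in the first, and those of Fabp1 span 0 throughout.

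Between genotypes on vehicle, 2 of 6 members were lower in LKO than in LWT (Fabp1 and Fabp2), where 6.23% of genes were called and 4.34% were lower. In KO against WT 1 of 6 was lower (Fabp1), where 30.3% were called and 16.2% were lower, and 3 were lower without KO vehicle replicate 1. On fenofibrate 4 of 6 were lower in LKO than in LWT (Fabp1, Fabp2, Fabp4 and Dbi), where 36.8% of genes were called and 18.5% were lower. The same 4 were lower in KO than in WT and Fabp7 was higher, so 5 of 6 were called, where 43.6% of genes were called, 22.2% lower and 21.3% higher. The control lines differed in 0 of 6 members on vehicle, where 0.925% of genes were called, and in 0 of 6 on fenofibrate, where 0.533% were called, and none of these 12 unadjusted p was below 0.05. The whole-body effect minus the liver effect was called for 0 of 6 members on either treatment, where 8.45% of genes were called on vehicle and 12.3% on fenofibrate. In KO against WT on vehicle 4 of 10 Kupffer cell and macrophage markers were called higher, with summed levels of 118, 188 and 487 in KO and 101 to 151 in WT. The macrophage gene Adgre1 read 4.29 in KO vehicle replicate 2, against 1.38 and 1.05 in the others. In the same comparison 3 of 6 lymphocyte and neutrophil markers were higher and 1 lower, 3 of 10 endothelial markers higher and 2 lower, 2 of 10 hepatocyte and 1 of 4 glial markers higher, and 1 of 5 cholangiocyte and 1 of 6 stellate cell markers lower. In KO against WT on fenofibrate 4 of 5 cholangiocyte markers were lower (median -1.36), 2 of 6 lymphocyte and neutrophil markers higher and 2 lower, 1 of 6 stellate cell markers higher and 1 lower, 3 of 4 adipocyte markers lower, and 3 of 10 hepatocyte, 2 of 10 endothelial and 1 of 10 macrophage markers higher. The part of these cells in the differences between KO and WT was not tested. These comparisons share their mice with one another and are not separate tests of a gene. Over all 8 groups, 5 of 6 members were called, all but Fabp5, where 61.0% of genes were.

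**Figure D4:**
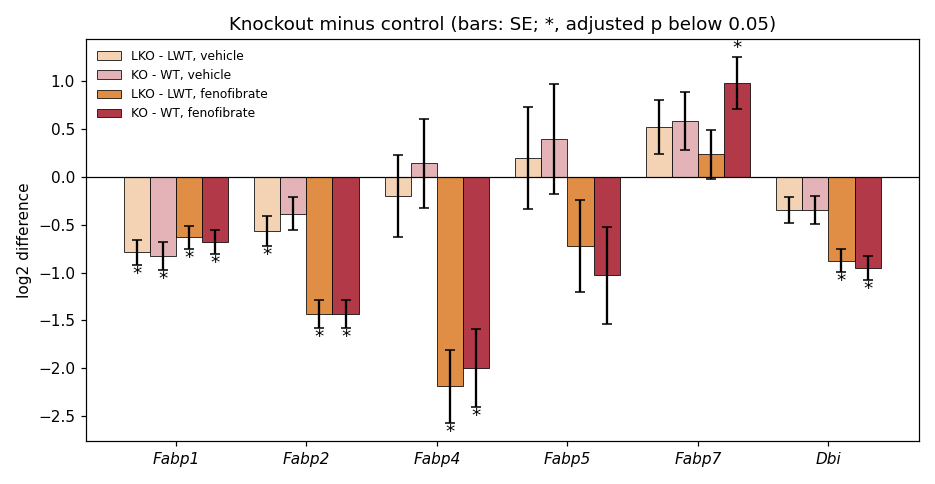
Log2 difference of the 6 genes between each knockout and its control, on vehicle (pale) and on fenofibrate (dark), with bars for the SE and a star where the adjusted p was below 0.05. Fabp1 has a star in all 4 comparisons, Fabp4 and Dbi have stars only on fenofibrate, and Fabp7 has 1 star, upward, in KO against WT on fenofibrate.

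Some members moved together across livers. Over the 34 arrays, which share the groups and so the drug and genotype steps, Pearson's r was 0.88 for Fabp2 and Dbi, 0.78 for Fabp1 and Dbi, 0.76 for Fabp2 and Fabp4 and -0.60 for Fabp1 and Fabp7. Once each group's mean was taken off, r fell to 0.35 for Fabp2 and Dbi and 0.38 for Fabp1 and Dbi, and was -0.15 for Fabp2 and Fabp4 and -0.31 for Fabp1 and Fabp7. Fabp5 and Dbi had 0.50 within groups, the highest of the pairs. These are descriptions over arrays that share a scale.

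The genes whose levels ran most like each member were sought among 14150 named genes with a value on every array, by r over the 34 arrays. For Fabp1 they were Acaa2, a mitochondrial thiolase of beta-oxidation (0.928), Rab43 (0.916) and Fam102a (0.915), and the most opposed was Apba2 (-0.876). Fabp2 ran with Fam136a (0.957) and Ccr9, a chemokine receptor (0.953), and against Slc17a1 (-0.918). Dbi ran with Nudt9 (0.955), Hadh, a dehydrogenase of beta-oxidation (0.951), and Acsl5, an acyl-CoA synthetase (0.950), and against Ppp4r4 (-0.943). For Fabp4 the closest were Tlcd5 (0.904), Cox6b2 (0.892) and Trpv2, a cation channel (0.892), with Hsd11b1, which regenerates active glucocorticoid, most opposed (-0.894). Fabp5 had looser matches in Slc44a3 (0.799), Akr1b3, aldose reductase (0.781), and S100a11 (0.723), with Mafg most opposed (-0.780). Fabp7 ran with Slc35b3 (0.826), Fcna, a ficolin (0.813), and Adcy4, an adenylyl cyclase (0.801), and against Mapre1 (-0.760).

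Other proteins of the same barrel family were mostly dim. Of 11 listed, 10 were on the array under that name and 4 passed the filter, Fabp3, Fabp12 and Crabp2 among them. Under fenofibrate 2 rose in WT and 1 in LWT, where 10.2% of all genes were raised in each. In LKO and KO 0 rose, where 0% and 0.0321% of all genes were called. Fabp3, the heart form, rose by 1.15 ± 0.41 in WT (adjusted p = 0.0454) and 1.34 ± 0.39 in LWT (adjusted p = 0.0162), but each call was lost without 1 treated liver. Vehicle livers read -3.34 to -2.69 in WT and -3.32 to -3.16 in LWT, below every treated liver of their line. Such a lack of overlap held for 27.2% of all genes in WT and 18.8% in LWT. In treated WT livers Fabp3 read -2.11, -0.11, -2.52 and -2.60, and without replicate 2 the change was 0.57 (adjusted p = 0.291). That WT liver also had the highest Adipoq (-2.66) and Plin1 (-3.15) of its group, both above background, but the lowest Cfd (1.54). A part of fat cells in the Fabp3 result was not tested. In treated LWT livers it read -2.47, -2.34, -0.05, -1.99 and -2.58, and without replicate 3 the change was 0.88 (adjusted p = 0.0558). That LWT liver was also the highest for Fabp4, Fabp5 and Fabp7 in its group. Fabp12 rose in WT by 1.05 ± 0.38 (adjusted p = 0.0498), a call lost without any 1 of replicates 1, 3 and 4 of the treated group or 2, 3 and 4 of the vehicle group. The median over the 4 was 0.55 in WT and 0.40 in LWT.

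Among 6 further proteins with an acyl-CoA binding domain, 5 passed the filter, of which 2 rose in WT and 3 in LWT, beside 10.2% of all genes in each. In LKO and KO 0 were called, beside 0% and 0.0321% of all genes. Eci2, a peroxisomal enoyl-CoA isomerase, rose by 0.64 ± 0.10 in WT and 0.57 ± 0.09 in LWT, and Acbd4 by 0.52 ± 0.14 and 0.52 ± 0.13, steps near that of Dbi. Acbd6 rose in LWT by 0.25 ± 0.08 (adjusted p = 0.0273), without a call in the authors' value table (0.18, adjusted p = 0.103). On vehicle Eci2 was lower in both knockouts, at -2.05 ± 0.10 for LKO minus LWT and -1.76 ± 0.11 for KO minus WT. Acbd5, a peroxisomal tether, was lower as well, at -0.76 ± 0.14 and -1.26 ± 0.15. Those vehicle gaps stand beside -0.35 (LKO minus LWT) and -0.34 (KO minus WT) for Dbi, which were not called. The LKO and LWT vehicle livers still did not overlap for Dbi, as for 13.7% of all genes. Within slides that held both groups, LKO minus LWT on vehicle ran from -0.51 to -0.30 for Dbi.

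Genes of fatty acid uptake and activation gave 6 of 10 raised in WT, and 4 raised with 1 lowered in LWT, with 0 called in either knockout. Among all genes 10.2% were raised in each control line, and 0% were called in LKO and 0.0321% in KO. Cd36, a fatty acid translocase, rose by 3.60 ± 0.18 in WT and 3.87 ± 0.17 in LWT, and Slc27a1, a transport protein, by 2.04 ± 0.19 and 1.81 ± 0.18. Cd36 had the layout of Fabp4: its vehicle differences were -0.16 (adjusted p = 0.577) in KO and -0.06 (adjusted p = 0.914) in LKO, and on fenofibrate they were -3.67 and -3.99. Acsl5, which makes the acyl-CoA that the Dbi protein binds, rose by 0.92 ± 0.16 and 0.69 ± 0.15 and was lower on vehicle in both knockouts, at -0.74 in KO and -0.97 in LKO. The median change over the 10 genes was 0.60 in WT and 0.44 in LWT.

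A list of other intracellular lipid carriers and droplet coat proteins gave 3 raised and 1 lowered of 9 in WT and the same counts in LWT. Among all genes 21.6% were called in WT and 18.0% in LWT, with 10.2% raised in each. Pctp, which carries phosphatidylcholine, rose by 1.75 ± 0.16 in WT and 1.1 ± 0.15 in LWT. The droplet coat gene Plin2 rose by 2.03 ± 0.26 and 1.12 ± 0.25, and Stard4, a cholesterol carrier, fell, at -0.98 ± 0.26 and -0.85 ± 0.24. Scp2, the sterol carrier protein, had no called change (0.11 and 0.05), as Fabp1 had none. A further list of 14 known PPARA targets had 13 raised in WT and 11 in LWT, beside 10.2% of all genes in each. In LKO and KO 0 were called, beside 0% and 0.0321% of all genes.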

How the data were processed

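The members, the related lists and the markers were chosen with earlier results of these data known. Per the file headers, the deposited scanner files hold spot intensities in 1 colour (Cy3), extracted with version 10.10.1.1 of Agilent's software, and place probes on mm9. The authors' value table, also deposited, is in log2 with every column median at 7.63, and served as an alternative. It held 32446 probes, all 7 member probes among them.

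Processed intensities of 59305 non-control spots were used. Outlier spots were dropped, which left 83 missing values in the fit, repeated spots were averaged, log2 taken and each array's 75th percentile subtracted. Gene names were updated through RefSeq (27325 probes by accession, 3523 by symbol, 551 by synonym, 657 kept the file's name, 23625 had none), while members kept the file's name. Probes entered (31058) if all arrays of 1 or more groups read them well above background, and the brightest probe stood for a gene (15561 genes). limma 3.58.1 in R 4.3.3 fitted 8 group means with no covariate, and the fit was also tested on simulated data. Its two-sided p were adjusted by Benjamini-Hochberg over all genes of a comparison. The 16 comparisons were 10 of 2 groups and 6 of effects, beside a test over all groups. Named genes are the members, Ppara, the 3 most alike and 1 most opposed to each member by r, and called genes of the fixed lists. Other genes named were chosen after their values were seen: uncalled genes of the lists, and the defining markers.

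Livers of the same replicate number were taken as paired where every r of their deviations from group means was above 0.1. That held for the vehicle groups (0.121 to 0.402 for KO and WT, 0.119 to 0.286 for LKO and LWT, 0.106 to 0.242 for WT and LWT) and no others. The main fit did not use the pairing, also for these groups. It entered only through the replicate block among the alternatives. Livers of unlike number were not correlated. Some pairs also shared a slide, among them the one with the highest r, so number and slide were not separated. The 5 slides, identified from the scanner files, were used as a block and for values within slides. Slide 5 held no vehicle liver of WT or LWT, and slide 4 no treated one. Within slide 3 the WT drug change was 1.08 for Fabp2, 2.64 for Fabp4 and 0.62 for Dbi. In LWT on slides 2 and 3 it was 1.22 and 0.81 for Fabp2, 2.38 and 1.61 for Fabp4 and 0.53 and 0.74 for Dbi. For Fabp5 it was 2.05 in WT, and -0.91 and 0.91 in LWT. These values rest on 1 or 2 livers a group. Intervals are for differences of group means, with the spread between mice estimated over all groups, and the number of arrays limits the precision. Alternatives were other normalizations, filters, the authors' table, slide and replicate blocks, a fit on only the groups compared, and leaving out each mouse. Some items are not reported here.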

Additional observations from a re-analysis of the deposited data

Results flagged for a closer look

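In 6 of 49 groups of 4 or 5 livers, 1 liver stood apart from the rest of its group by Dixon's criterion, which chance alone would flag in about 1 group in 20. They were Fabp4 in LWT fenofibrate replicate 3 (6.02), Fabp5 in WT fenofibrate replicate 2 (6.06), Fabp7 in WT fenofibrate replicate 1 (-0.98), Fabp1 in WT vehicle replicate 2 (9.90) and in LKO fenofibrate replicate 4 (9.26), and the second Dbi probe in LWT fenofibrate replicate 4 (9.75). The responses of lines differed by an interaction test for Fabp2 (0.87) and Fabp4 (1.99) between LWT and LKO, and for Fabp2 (1.05), Fabp4 (2.14) and Dbi (0.61) between WT and KO.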

How the results depend on the processing

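Of 96 member changes tested 23 were called, and 18 of the 23 stayed called under every alternative run. Of 473 alternative values of called changes, 441 kept the call, 32 lost it and 0 turned sign. Of 1609 values of uncalled changes 16 gained a call. The count of members lower in LKO than LWT on vehicle went from 2 to 1 in the authors' value table and with quantile normalization, and ran from 1 to 2 over livers left out. In KO against WT on vehicle it went from 1 to 2 in the authors' value table, with normexp and quantile, quantile normalization and slide as a block, and ran from 1 to 3 over livers left out (3 without KO vehicle replicate 1). For the response of LWT against LKO it went from 2 to 1 with no filter on dim probes, and ran from 1 to 2 over livers left out. In that comparison Dbi gained a call in the authors' value table, with quantile normalization and with slide as a block. For WT against KO the count was 3 and ran from 1 to 3, the 1 being without WT fenofibrate replicate 1. Over all 8 groups it was 5 and ran from 4 to 6 over livers left out, with Fabp7 also missing the threshold in the authors' value table and with slide as a block. The cause was not tested. Fabp4's rise in LWT lost its call only in the fit on the groups compared alone (adjusted p = 0.0581), and its response for WT against KO in 3 fits that left out a liver (adjusted p up to 0.0743). The replicate block changed no call of a member, for example Fabp1 in KO against WT on vehicle (-0.82, adjusted p = 0.000189). With 3 to 5 livers a group, Fabp5 and Fabp4 had the widest spread within groups (residual SD 0.79 and 0.63) and Fabp1 the narrowest of the members (0.19).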
